A study of Oryza sativa with 14 samples.

Results

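Roots of the rice mutant mhz1 were compared with wild-type (WT) roots on 4 of the 14 arrays of the series, chosen by their titles. The 4 arrays were mhz1 root in air, mhz1 root in ethylene, WT root in air and WT root in ethylene, with 1 array in each group. All groups were etiolated seedlings aged 3 days, from seeds kept for germination without light at 37 °C over 2 days. Ethylene treatment was 10 ppm during 8 h, at 28 °C and again without light, over a water layer of 1.5 to 1.7 cm. Seedlings in air were the controls, and the labels leave their treatment conditions unstated. The background variety, the allele of mhz1 and the number of seedlings pooled for an array are not given in the labels. Both WT root titles carry the mark "mb", which no mutant title has and which the labels do not explain, so mhz1 and this mark cannot be told apart. The remaining 10 arrays held mhz4 and mhz5 roots and the shoots of mhz4, mhz5 and WT.

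As background from published work, MHZ1 encodes the histidine kinase OsHK1, and mhz1 was isolated because ethylene fails to stop the growth of its roots. Histidine kinases pass a phosphoryl group through phosphotransfer proteins (AHPs) to response regulators (RRs), some of which act on transcription. In rice roots this phosphorelay carries part of the ethylene signal beside the route through the ethylene receptors, EIN2 and EIL1. MHZ4 and MHZ5 act in the synthesis of abscisic acid (ABA) and its carotenoid precursors, and roots of those mutants also respond abnormally to ethylene. The transcript of MHZ1 itself was not analysed here, so no value of the mutated gene checks the mhz1 label.

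Every value is the authors' deposited signal of a probe set, on a linear scale, and a probe set is the group of short oligonucleotides that reads a transcript. Differences are mhz1 minus WT on the scale log2(signal + 8), where the added 8 keeps dim probe sets from dominating and understates their change. A probe set was tested if it read at least 50 on at least 2 of the 14 arrays, which left 23237 of 57194. With 1 array per group, a limma fit over all 14 arrays used both gases of a genotype as its repeats. A call therefore means a difference, averaged over both gases, that is large against the disagreement between gases and genotypes. Its p-value measures only the spread between these arrays, not that between seedling batches. Because whole roots were measured, fewer cells of a type and less RNA per cell cannot be told apart. For each gas alone there is 1 array against 1, and no test.

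Spearman correlations over probe sets among the 4 arrays were 0.981 to 0.987, with 19582 to 19885 probe sets at a signal of 50 or more. The tissue label was set against marker genes. The 13 shoot and photosynthesis markers summed to 1061 and 1094 in mhz1 roots and 888 and 1030 in WT roots, in air and ethylene, against 32728 to 50891 in the 6 shoot arrays. The 13 root markers summed to 16852 and 25531 in mhz1 roots and 16242 and 28436 in WT roots, against 1075 to 18234 in the shoot arrays. The highest shoot sum was thus above both of these root sums in air, so this list did not separate the tissues on every array. RBCS, the small subunit of Rubisco, read 32.6 and 29.6 in mhz1 roots and 31.8 and 42.5 in WT roots. None of the markers of shoot, seed, floral or root tissue was called. The single root hair marker measured, the wall synthase gene CSLD1, read 109 and 84.5 in mhz1 roots against 160 and 148 in WT roots, and its difference of -0.64 missed the threshold (limma adjusted p = 0.169).

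The fit called 289 probe sets as different in mhz1 (limma adjusted p under 0.05), which is 1.24% of those tested. Of these, 191 were higher in mhz1 (0.822%) and 98 were lower (0.422%). Both WT root arrays lay beyond all 6 mutant root arrays in 119 of the 191 and 63 of the 98. Both mhz1 arrays lay beyond the 6 other root arrays in 81 of the 191 and 25 of the 98. In those 119 and 63, WT roots stood apart from all mutant roots, not from mhz1 alone. Calls were selected for a difference between mhz1 and WT, so part of these counts follows from the selection. Their shares over all tested probe sets were not counted. The differences of the higher ones had a median of 0.73 (0.31 to 6.59), and those of the lower ones a median of -0.95 (-5.31 to -0.33). All 191 and all 98 had the same direction in both gases, but only 31 and 33 were at least 2-fold apart in both. Counted by gene, with the brightest probe set standing for a gene, 130 genes were higher (0.889% of 14615 tested) and 44 were lower (0.301%), 1.19% together. The count of 289 depended on single arrays, with 44 without mhz1 in air, 27 without mhz1 in ethylene, 68 without WT in air and 51 without WT in ethylene, and it was 66 without the mhz4 arrays. Only 30 of the called genes have an informative name, 22 higher and 8 lower.

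**Figure D1:**
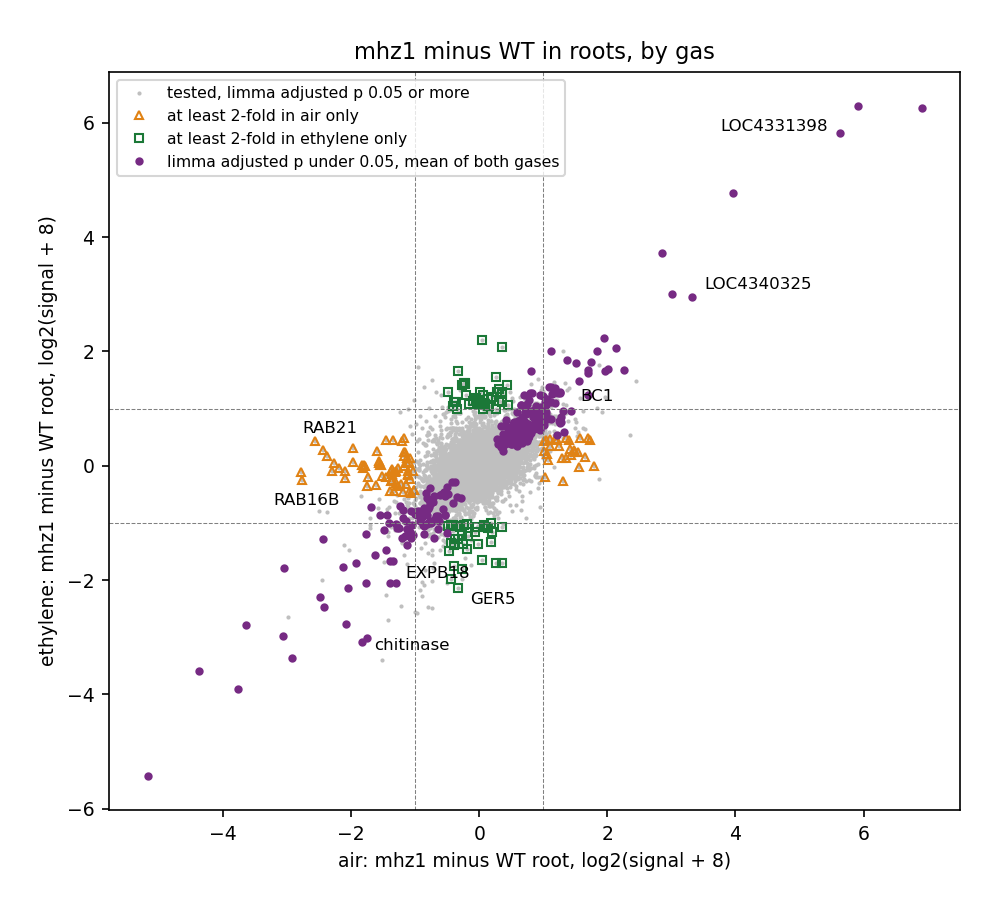
Difference between mhz1 and WT roots in air (x axis) and in ethylene (y axis) for each tested probe set, in log2(signal + 8). Filled circles are the probe sets called over both gases, triangles and squares those at least 2-fold apart in air only or in ethylene only, and dashed lines mark 2-fold; the called probe sets lie along the diagonal, and the air-only triangles are mostly on the left.

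Genes of cellulose and wall synthesis were the listed group with the most called genes, and no other list had more than 1 in either direction. Of 65 tested genes on the list of cellulose, COBRA-like and other wall genes, 7 were higher in mhz1 and none was lower, beside 0.889% and 0.301% of all genes. The list's median difference was 0.11 in air and 0.10 in ethylene, beside -0.03 and 0.01 for all genes. BC1 (brittle culm 1, LOC4333114, chromosome 3), a COBRA-like protein needed for the mechanical strength of secondary walls, read 730 in air and 812 in ethylene in mhz1 roots, against 301 and 328 in WT roots. Both mhz1 arrays were far above both WT arrays, and the mean difference was 1.27 (SE 0.07, limma adjusted p = 9.95e-05), or 2.42-fold.

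The 3 cellulose synthases of the secondary wall were higher with it. CESA4 (LOC4324625, chromosome 1) read 2162 and 2044 in mhz1 roots, against 1302 and 1094 in WT roots. CESA7 (LOC4348853, chromosome 10) read 1678 and 1460 in mhz1 roots, against 909 and 816 in WT roots. CESA9 (LOC4347093, chromosome 9) read 751 and 633 in mhz1 roots, against 435 and 381 in WT roots. In each of the 3 genes the lower mhz1 array was above the higher WT array. The mean differences were 0.81 (SE 0.08, limma adjusted p = 0.00394), 0.86 (SE 0.11, adjusted p = 0.0111) and 0.75 (SE 0.08, adjusted p = 0.00592). A second CESA4 probe set gave 0.74 (limma adjusted p = 0.00959). The cellulose synthases of the primary wall differed less and were not called, with 0.17 for CESA1, 0.14 for CESA3, 0.16 for CESA5, 0.25 for CESA6 and 0.16 for CESA8 (limma adjusted p from 0.213 to 0.416). Genes of xylan synthesis also missed the threshold, with 0.38 for GT43A (limma adjusted p = 0.0638), 0.29 for IRX9L and 0.20 for IRX14, although both mhz1 arrays were above both WT arrays in all 3, as in 19.0% of all genes.

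BURP2 (LOC4338119), which encodes a protein with a BURP domain, was the brightest of the called wall genes. It read 6531 and 6031 in mhz1 roots, against 3538 and 2912 in WT roots, a mean difference of 0.97 (SE 0.08, limma adjusted p = 0.00108). Its second probe set gave 1.11 (limma adjusted p = 0.00323). TBL6 and TBL15, of the family that adds acetyl groups to wall polysaccharides, differed by 0.58 and 0.40 (limma adjusted p = 0.02 and 0.0452), and both calls were lost without any 1 of the 4 arrays (0.0798 to 0.276). A second TBL6 probe set was not called (0.20, limma adjusted p = 0.543). The BC1-like gene BC1L2 went the other way, at -0.45, without being called (limma adjusted p = 0.227).

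Leaving out single arrays separated these genes. BC1 and BURP2 kept their calls without any 1 of the 4 arrays (limma adjusted p at most 0.00468 and 0.0201). CESA4 lost its call without the mhz1 air array (0.0565) or the mhz1 ethylene array (0.0669). CESA7 and CESA9 lost theirs without any 1 array (0.0571 to 0.128 and 0.0556 to 0.0878), and CESA7 also without the mhz4 arrays (0.0627). Fewer arrays also leave the fit fewer residual degrees of freedom.

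In roots of the other mutants BC1 and CESA4 stood between mhz1 and WT. BC1 read 602 and 642 in mhz4 roots and 456 and 476 in mhz5 roots, and CESA4 read 1907 and 1809 in mhz4 and 1520 and 1551 in mhz5. Set against the mean of mhz4 and mhz5 roots in the same fit, mhz1 was higher by 0.51 for BC1 (SE 0.06, limma adjusted p = 0.00192), 0.31 for CESA4 (adjusted p = 0.0225), 0.30 for CESA9 (adjusted p = 0.0295) and 0.29 for BURP2 (adjusted p = 0.0248). In that comparison, which was added after seeing the data, 12% of tested probe sets were called. CESA7 differed by 0.27 and was not called (limma adjusted p = 0.0927).

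**Figure D2:**
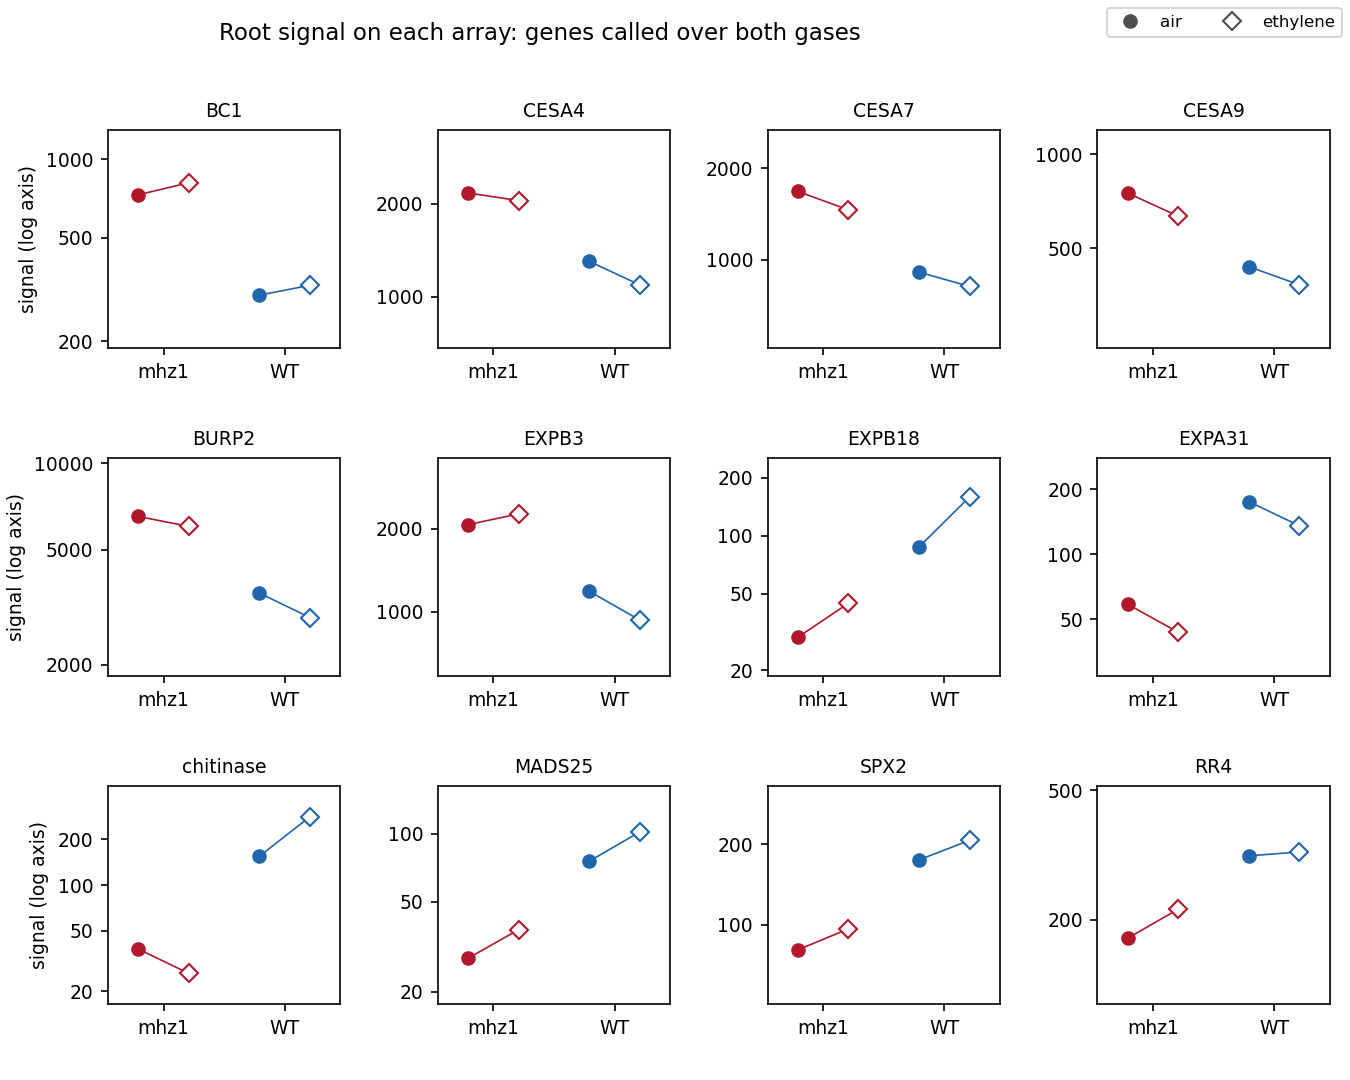
Deposited signal (y axis, log scale) on each of the 4 root arrays for 12 genes called over both gases, with mhz1 left of WT in each panel, filled circles for air and open diamonds for ethylene. In every panel the 2 mhz1 points lie on 1 side of the 2 WT points, and the lines join air and ethylene of a genotype.

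Expansins, which loosen the wall during growth, moved in both directions. EXPB3 read 2072 and 2266 in mhz1 roots, against 1186 and 932 in WT roots, a mean difference of 1.04 (SE 0.14, limma adjusted p = 0.0136). EXPB18 read 29.7 and 44.5 in mhz1 roots, against 87.6 and 159 in WT roots, a mean difference of -1.51 (SE 0.16, limma adjusted p = 0.00574). EXPA31 read 58.6 and 43.5 in mhz1 roots, against 175 and 135 in WT roots, a mean difference of -1.47 (SE 0.16, limma adjusted p = 0.00591). Neither gas brought the genotypes together in any of the 3.

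Among 9 tested beta-expansins, EXPB3 and EXPB18 were the called genes, and among 10 tested alpha-expansins EXPA31 was, beside 0.889% higher and 0.301% lower of all genes. The alpha-expansin list had a median of -0.28 in air and -0.29 in ethylene. Both mhz1 arrays were below both WT arrays in 4 of its 10 tested genes and above in 1, beside 24.4% and 19.0% of all genes. The calls of EXPB3 and EXPB18 were lost without the mhz1 ethylene array (limma adjusted p = 0.129 and 0.101), among others, and that of EXPA31 without any 1 array (0.0563 to 0.0896). EXPB18 was lower still in the other mutants, with 5.97 and 12.2 in mhz4 roots and 6.9 and 14.4 in mhz5 roots. EXPB3 read 2921 and 2200 in mhz4 roots and 2505 and 2171 in mhz5 roots, and mhz1 did not differ detectably from their mean (-0.17, SE 0.12, limma adjusted p = 0.397). EXPA31 read 44.9 and 26.1 in mhz4 roots and 46.1 and 41.6 in mhz5 roots. For it too mhz1 did not differ detectably from their mean (0.32, SE 0.14, limma adjusted p = 0.162).

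Other named genes were higher in mhz1 in both gases. CIPK17, a kinase activated by calcium sensors of the CBL family, read 516 and 432 in mhz1 roots, against 210 and 173 in WT roots (1.27, SE 0.15, limma adjusted p = 0.00864). ADF11, an actin depolymerising factor, read 1013 and 890 in mhz1 roots, against 406 and 456 in WT roots (1.13, SE 0.12, limma adjusted p = 0.00592). For both genes the genotypes did not overlap, and the mhz4 and mhz5 roots read like mhz1, from 349 to 521 for CIPK17 and from 950 to 1195 for ADF11. The call of CIPK17 was lost without any 1 of the 4 arrays (limma adjusted p from 0.0637 to 0.117). That of ADF11 was lost in 3 of the 4 omissions (0.0525 to 0.0798) and kept without WT in ethylene (0.0345).

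GST-I, a glutathione S-transferase, read 107 and 45.5 in mhz1 roots, against 40.3 and 23.1 in WT roots (1.02, limma adjusted p = 0.0369). Its level was lower in ethylene than in air in both genotypes, so the mhz1 ethylene array was close to the WT air array. The further genes named by size were RASI, an inhibitor of amylase and subtilisin (0.99), TDC2, which makes tryptamine from tryptophan (0.93), and HAP5B, a subunit of a CCAAT-binding factor (0.75). Called members of other lists were the metal transporter NRAMP3 (0.70), the homeobox gene HOS66 (0.54) and the sugar transporter SWEET2A (0.51). Their limma adjusted p-values were from 0.0145 to 0.0452, and each of these 6 and GST-I lost its call without any 1 of the 4 arrays (adjusted p from 0.059 to 0.352). TDC2 was higher again in mhz4 and mhz5 roots, at 371 to 470 against 221 and 332 in mhz1 roots and 102 and 186 in WT roots.

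Of the genes lower in mhz1, a chitinase (LOC4351188, chromosome 11), which breaks down fungal wall chitin, had the largest difference among the called genes with a name. It read 37.9 and 26.2 in mhz1 roots, against 155 and 282 in WT roots, a mean difference of -2.46 (SE 0.34, limma adjusted p = 0.0172). Its neighbour on the chromosome, the chitinase gene Chib3H-h, read 573 and 47.5 in mhz1 roots, against 1657 and 579 in WT roots (-2.46, limma adjusted p = 0.0566). Both WT arrays were above both mhz1 arrays for each gene, though for Chib3H-h mhz1 in air was only just below WT in ethylene. Probe sets of such close copies may share transcripts. Of 41 tested chitinases, cystatins and other defence genes the first was the only called member, and the list's median difference was -0.04 in air and 0.03 in ethylene. The call ended without the mhz1 ethylene array (limma adjusted p = 0.195), the mhz1 air array (0.0798) or the WT ethylene array (0.087). This chitinase read 42.4 and 47.5 in mhz4 roots and 62.0 and 58.4 in mhz5 roots. Its level in mhz1 did not differ detectably from their mean (-0.60, SE 0.30, limma adjusted p = 0.223). A class III peroxidase (LOC4344277), which oxidises phenolics in the wall, read 29.7 and 59.5 in mhz1 roots, against 198 and 263 in WT roots, and did not pass the test (-2.23, limma adjusted p = 0.141).

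MADS25, a MADS-box regulator of root development, read 28.1 and 37.6 in mhz1 roots, against 75.5 and 102 in WT roots (-1.24, SE 0.15, limma adjusted p = 0.00903). SPX2, a sensor protein of phosphate status, read 80.6 and 96.5 in mhz1 roots, against 175 and 207 in WT roots (-1.04, SE 0.16, limma adjusted p = 0.023). In neither gene did the genotypes overlap. SPX2 read 190 and 238 in mhz4 roots and 155 and 224 in mhz5 roots, near WT, and mhz1 differed from their mean (-1.11, SE 0.14, limma adjusted p = 0.0024). MADS25 was low in mhz4 roots as well, at 41.9 and 41.2, but read 86.7 and 109 in mhz5 roots.

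HSFA2D, a heat shock factor, read 923 and 1802 in mhz1 roots, against 1387 and 2544 in WT roots (-0.54, SE 0.08, limma adjusted p = 0.0186). Its signal was higher in ethylene than in air in both genotypes, so the mhz1 ethylene array exceeded the WT air array while each gas kept mhz1 below WT. UMPS1, which makes UMP in pyrimidine synthesis, read 416 and 388 in mhz1 roots, against 638 and 556 in WT roots (-0.56, SE 0.09, limma adjusted p = 0.0352). The calls of MADS25, SPX2, HSFA2D and UMPS1 were lost without any 1 of the 4 arrays (limma adjusted p from 0.059 to 0.262).

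In the phosphorelay to which MHZ1 belongs, 17 of 20 listed genes were tested and 1 was called, beside 1.19% of all genes in either direction and 0.301% lower. The response regulator gene RR4 (LOC4325747, chromosome 1) read 175 and 215 in mhz1 roots, against 314 and 323 in WT roots. Both mhz1 arrays were below both WT arrays, and the mean difference was -0.69 (SE 0.12, limma adjusted p = 0.044). The call was lost without any 1 of the 4 arrays (limma adjusted p from 0.109 to 0.305) and without the mhz4 or the mhz5 arrays (0.0916 and 0.0843). Roots of mhz4 and mhz5 read 271 to 354, and mhz1 differed from their mean (-0.57, SE 0.11, limma adjusted p = 0.014).

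RR6, another response regulator gene, read 872 and 840 in mhz1 roots, against 1898 and 898 in WT roots. It was therefore lower in mhz1 in air (-1.12) and close to WT in ethylene (-0.10), and was not called over both gases (limma adjusted p = 0.207). The mhz4 and mhz5 roots, at 1062 to 1555, were above both mhz1 arrays. The phosphotransfer gene AHP2 read 1566 and 1545 in mhz1 roots, against 1992 and 1822 in WT roots (-0.29, limma adjusted p = 0.0562). RR2 went the other way (0.38, limma adjusted p = 0.182), and the list's median was -0.04 in air and -0.02 in ethylene.

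No gene of the ethylene receptors and signalling list was called among 8 tested. The receptor gene ETR2 read 342 and 835 in mhz1 roots, against 310 and 713 in WT roots, and ERS1 read 1530 and 1867 in mhz1 roots, against 1389 and 1607 in WT roots. ARGOS, an organ size gene induced by ethylene, read 186 and 552 in mhz1 roots, against 158 and 507 in WT roots. In all 3 genes the ethylene array of each genotype was above its air array, and for these probe sets the genotypes differed by at most 0.23 on the log2 scale in either gas. The mean differences were 0.18, 0.18 and 0.17 (limma adjusted p = 0.32, 0.233 and 0.486). A second, dimmer probe set of ETR2 read 9.20 and 78.2 in mhz1 roots, against 9.01 and 39.5 in WT roots, and so differed by 0.86 in ethylene without a call over both gases (0.44, limma adjusted p = 0.427). Of 8 tested genes of ethylene synthesis none was called, and ACO1, which makes ethylene from ACC, read 44.9 and 47.7 in mhz1 roots, against 87.0 and 64.3 in WT roots (-0.61, limma adjusted p = 0.319).

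In single gases, 347 probe sets were at least 2-fold apart in air (1.7% of 20423 with a signal of at least 50 on the brighter array), of which 129 were higher in mhz1 (0.632%) and 218 lower (1.07%), and 279 in ethylene (1.37% of 20338). Both gases gave the same direction at 2-fold for 106 probe sets (0.538%), 48 higher in mhz1 and 58 lower, and 1 went opposite ways. For 122 probe sets (0.597%) mhz1 and WT were at least 2-fold apart in air but within 0.5 on the log2 scale in ethylene. These air-only differences ran mostly downwards, with 94 lower in mhz1 (0.46%) and 28 higher. The WT air array was the highest of the 8 root arrays in 88 of these 94 and the lowest in 13 of the 28. The mhz1 air array was the highest in 13 of the 28. The class requires WT in air to differ from mhz1 in air, so part of these counts follows from its definition. Their shares over all probe sets were not counted. The reverse class, ethylene only, held 80 probe sets, 41 higher and 39 lower. These classes rest on 1 array against 1. The test of the difference between the gases called 0 of 23237 probe sets (limma, lowest adjusted p = 0.296, and 598 at an unadjusted p under 0.05, which is 2.57%).

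Of the air-only genes with an informative name, by the brightest probe set of each, ILI2, an atypical helix-loop-helix protein of leaf angle, had the largest difference (-2.78 in air and -0.11 in ethylene). It read 6.04 and 7.71 in mhz1 roots, against 88.4 and 8.93 in WT roots. The next 4 were dehydrins, proteins that accumulate when tissue dries or ABA rises. RAB21 read 565 in air and 29.2 in ethylene in mhz1 roots, against 3089 and 22.6 in WT roots. RAB16B read 77.5 and 9.52 in mhz1 roots, against 571 and 12.9 in WT roots. Both are thus lower in mhz1 in air, with differences of -2.43 and -2.76, and at similar low signals in ethylene. RAB16C and RAB16D had the same form, with differences of -2.37 and -2.27 in air and 0.17 and 0.05 in ethylene. With the WT air array left out, the fitted difference was 0.48 for RAB16B and 1.01 for RAB16D. RAB16B and RAB21 are neighbours on chromosome 11. All 4 RAB genes lie there with consecutive gene numbers (LOC4350451 to LOC4350454), and their probe sets may share transcripts.

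LEA19 read 286 and 31.0 in mhz1 roots, against 1516 and 60.3 in WT roots, and so was lower in both gases (-2.37 and -0.81). Dhn1 differed little, with 1176 and 754 in mhz1 roots and 1378 and 695 in WT roots. Over the 6 tested genes of the LEA and dehydrin list the median difference was -2.37 in air and 0.08 in ethylene, beside -0.03 and 0.01 for all genes. At least 2-fold lower in air were 5 of the 6 and none was higher, beside 0.582% and 0.52% of all tested genes. These 5 were LEA19 and the RAB genes above. Since the RAB probe sets may share transcripts, the 5 are not independent, and the median rests largely on them. In ethylene none of the 6 passed 2-fold, beside 0.458% lower and 0.465% higher of all tested genes. Over both gases none was called.

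The next genes of the air-only class by size were MFT1, PXG and PM19L1. MFT1, of the family that controls germination, read 70.4 and 28.5 in mhz1 roots, against 231 and 38.0 in WT roots. PM19L1, a membrane protein induced by ABA, read 378 and 47.2 in mhz1 roots, against 1108 and 46.7 in WT roots. PXG, a peroxygenase of the caleosin family, read 23.6 and 11.3 in mhz1 roots, against 87.5 and 8.03 in WT roots. In all 3 the WT air array was the highest of the 4. The phosphatase gene PP2C30 of the ABA list, which restrains ABA signalling, read 129 and 32.3 in mhz1 roots, against 287 and 36.5 in WT roots.

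Among 31 tested genes of ABA synthesis, breakdown and signalling the median difference was -0.25 in air and 0.04 in ethylene, and none was called. PSY2, a phytoene synthase that starts carotenoid synthesis, read 83 and 73.1 in mhz1 roots, against 189 and 126 in WT roots (-0.92, limma adjusted p = 0.0561), so that this gene was low in both gases. Roots of mhz4 and mhz5 read 72.7 to 90.9 for PSY2, and mhz1 did not differ detectably from their mean (-0.02, limma adjusted p = 0.94). MHZ4 differed by -0.49 (limma adjusted p = 0.179).

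**Figure D3:**
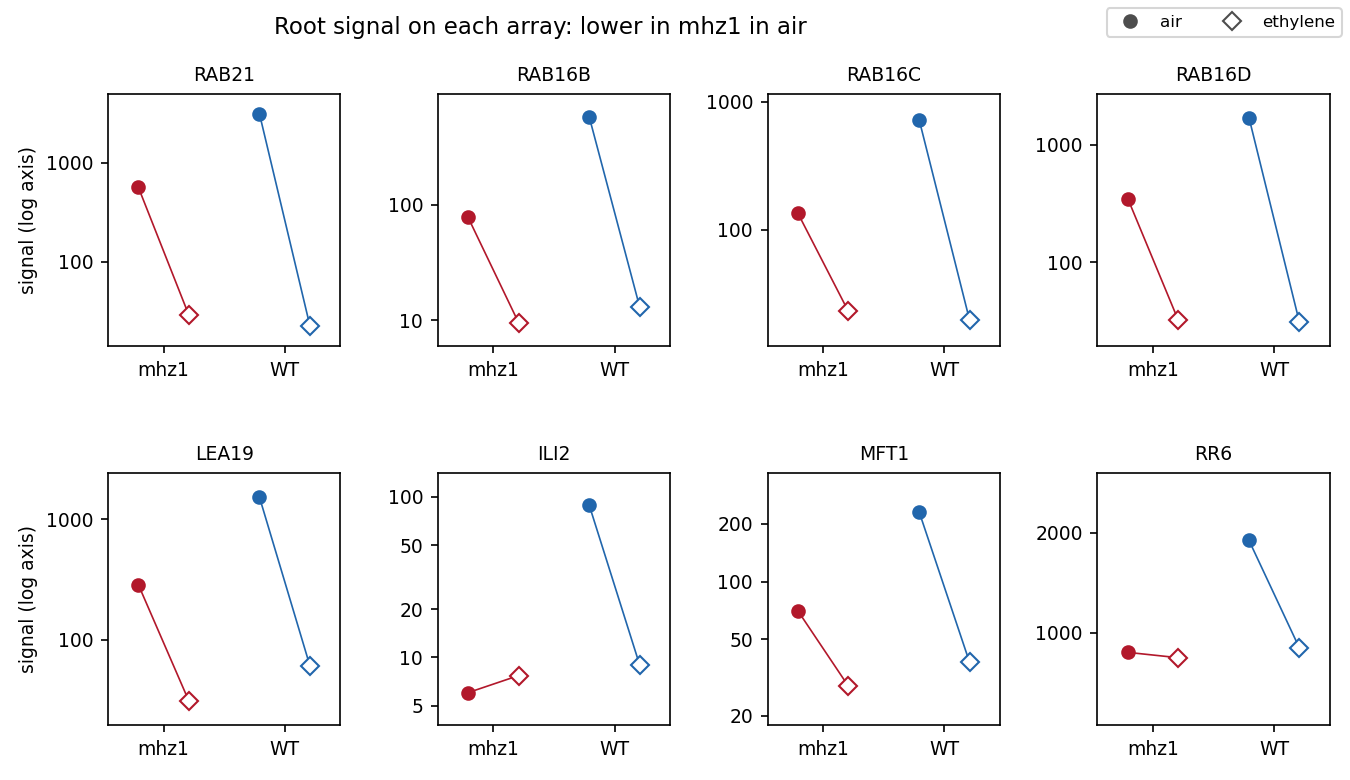
Deposited signal (y axis, log scale) on the 4 root arrays for 8 genes that were lower in mhz1 than in WT in air, with mhz1 left of WT, filled circles for air and open diamonds for ethylene. In all panels the WT air point is the highest, and in ethylene the genotypes are close except for LEA19.

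RAB21 read 18.8 and 10.9 in mhz4 roots and 13.5 and 9.82 in mhz5 roots, in air and ethylene, below mhz1 in air. RAB16B, RAB16C, RAB16D, LEA19, MFT1, PXG, PM19L1 and PP2C30 were also lower in mhz4 and mhz5 than in mhz1 in air. RAB16D, for example, read 33.7 in mhz4 and 30.9 in mhz5, against 349 in mhz1. For these genes mhz1 was the mutant closest to WT in air. ILI2 and RR6 went the other way. ILI2 read 135 and 110 in mhz4 roots and 151 and 52.2 in mhz5 roots, above mhz1 in both gases.

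In the other direction, LAC24, a laccase that oxidises phenolics, read 80.7 and 26.4 in mhz1 roots, against 17.7 and 26.3 in WT roots. CSFL8 read 227 and 134 in mhz1 roots, against 108 and 111 in WT roots. By the brightest probe set of each gene, these were the only air-only genes with an informative name that were higher in mhz1.

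In ethylene only, 13 genes with an informative name were at least 2-fold apart, and the 5 largest that were lower in mhz1 were GER5, ASMT3, IAA20, EXPA6 and ADF-9. EXPA6 read 39.9 in air and 78.8 in ethylene in mhz1 roots, against 40.4 and 217 in WT roots. IAA20 (LOC4340245), an Aux/IAA repressor of auxin responses, read 140 and 147 in mhz1 roots, against 161 and 417 in WT roots. GER5, a germin-like protein, read 15.3 and 10.1 in mhz1 roots, against 21.4 and 71.5 in WT roots, and ASMT3, a methyltransferase of melatonin synthesis, read 24.9 and 26.9 in mhz1 roots, against 23.9 and 102 in WT roots. In these 4 genes the WT ethylene array stood above the other 3. ADF-9, a further actin depolymerising factor, read 144 and 98.2 in mhz1 roots, against 189 and 251 in WT roots.

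Higher in mhz1 in ethylene only were the homeobox gene hox14 (56.3 and 132 in mhz1 roots, against 69.5 and 44.6 in WT roots) and the jasmonate repressor JAZ13 (356 and 173 in mhz1 roots, against 276 and 66.6 in WT roots). The calmodulin-like genes CML14 (376 and 353 in mhz1 roots, against 382 and 162 in WT roots) and CML31 (487 and 413 in mhz1 roots, against 646 and 186 in WT roots) were the others. For these 4 genes the WT ethylene array was the lowest of the 4. In mhz4 and mhz5 roots CML14 read 76.7 to 119 and JAZ13 80.7 to 109, below mhz1 in each gas.

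Small shifts of whole lists were seen without calls. Among 27 ribosomal protein genes, 24 read lower on both mhz1 arrays than on both WT arrays, beside 24.4% of all genes, and their median difference was -0.10 in air and -0.14 in ethylene. The largest was RPL3, a protein of the large subunit, with 4348 and 3889 in mhz1 roots against 5412 and 5257 in WT roots (-0.37, limma adjusted p = 0.089). Genes of histones, replication and cyclins had 21 of 56 below on both arrays and a median of -0.10 in air and -0.04 in ethylene. Among 33 tested jasmonate genes the median was 0.23 in air and 0.01 in ethylene. The lipoxygenase LOX3 of that list read 174 and 497 in mhz1 roots, against 25.4 and 174 in WT roots, and was not called (1.96, limma adjusted p = 0.182). The medians of auxin (59 tested), aquaporin (21) and iron and metal genes (44) were between -0.10 and 0.01 in both gases.

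**Figure D4:**
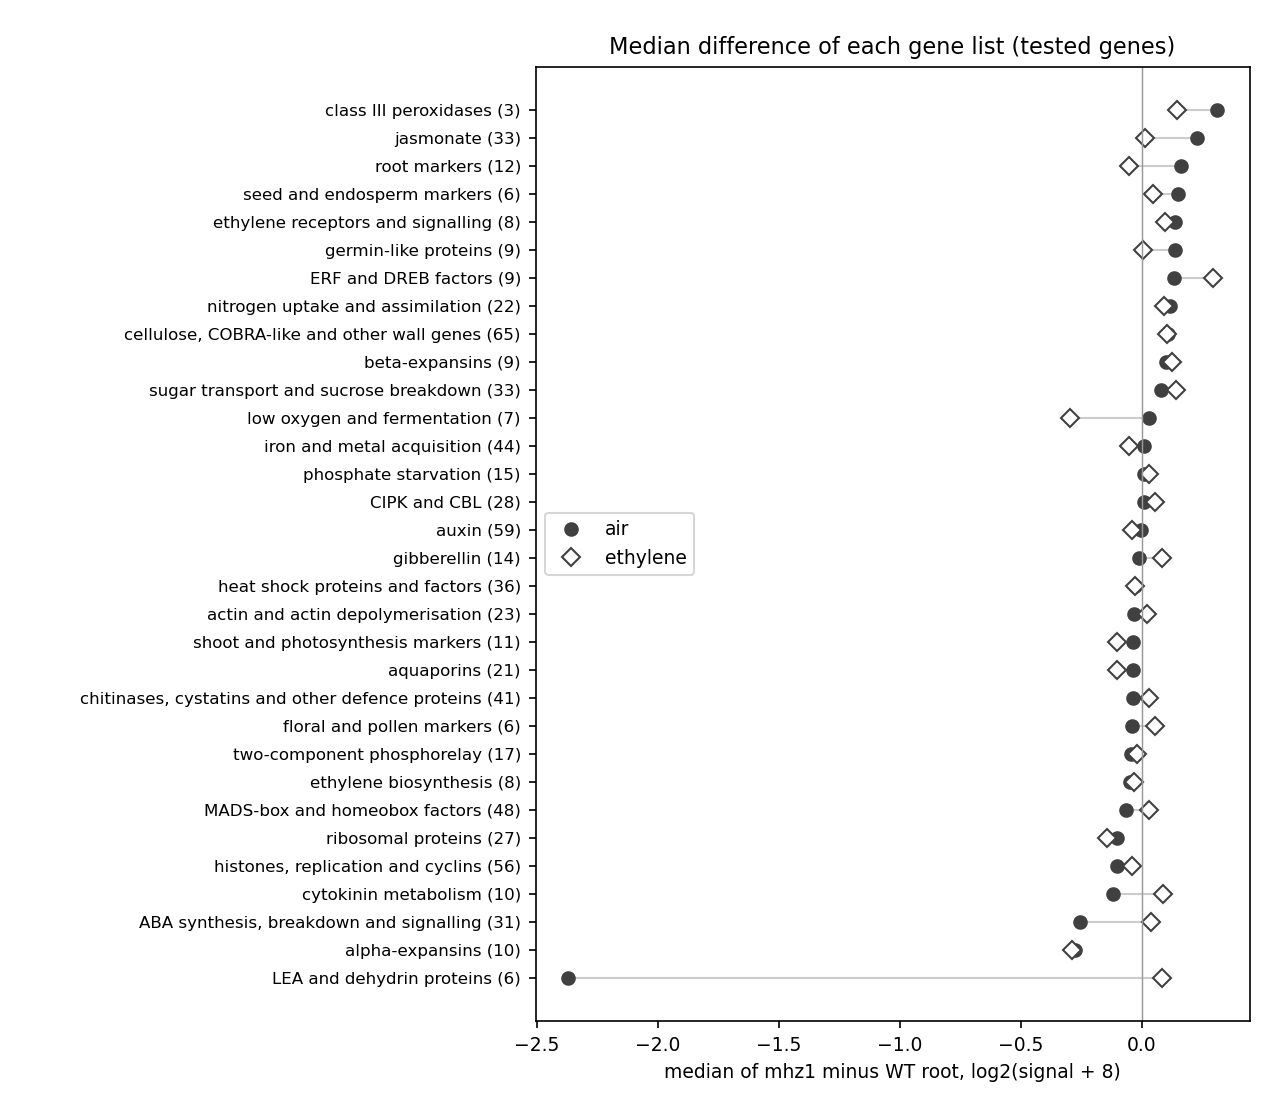
Median difference between mhz1 and WT roots in log2(signal + 8) (x axis) for each gene list with at least 3 tested genes (rows, number of tested genes in brackets), filled circles for air and open diamonds for ethylene. The LEA and dehydrin list stands apart in air at -2.37, and the other medians lie between -0.30 and 0.31.

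The largest differences belonged to genes or probe sets without an informative name. LOC4331398 (chromosome 3) read 850 and 1042 in mhz1 roots, against 6.23 and 5.31 in WT roots, a difference of 6.11 (SE 0.14, limma adjusted p = 5.26e-07). A second probe set of that gene gave 5.73, and mhz4 roots read 477 and 389 but mhz5 roots 6.49 and 5.81. LOC4340325 (chromosome 6) read 148 and 137 in mhz1 roots, against 7.58 and 10.8 in WT roots (3.14, limma adjusted p = 0.0014). Dim, untested second probe sets showed no such difference, at -0.14 for LOC4340325, 0.02 for LOC4325984 and -0.07 for LOC4350112. LOC4325984 (chromosome 1) read 438 and 1052 in mhz1 roots, against 103 and 320 in WT roots (1.85, limma adjusted p = 0.0443).

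Lower by this rule were LOC4350112 (chromosome 11), with 5.05 and 5.58 in mhz1 roots against 62.0 and 67.5 in WT roots (-2.45, limma adjusted p = 0.000264), and the pseudogene LOC9266242 (chromosome 11), with 7.48 and 14 in mhz1 roots against 79.0 and 99.4 in WT roots (-2.39, limma adjusted p = 0.000342). LOC4352856 (chromosome 12) read 13.7 and 6.17 in mhz1 roots, against 171 and 41.2 in WT roots (-2.42, limma adjusted p = 0.0485). LOC4325984 and LOC4352856 lost their calls without any 1 of the 4 arrays (limma adjusted p from 0.0562 to 0.38), and the other 4 genes kept theirs in each omission (at most 0.0367). The largest difference of all (6.59) was that of a probe set with no gene in the annotation, with 3934 and 4544 in mhz1 roots against 24.9 and 51.2 in WT roots. It read 2026 or more on every other array, and 4524 in WT shoots in air.

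In 9 probe sets both mhz1 arrays read at least 50 and both WT root arrays under 20, and in 8 the reverse held, with limits set after seeing the data. All 9 of the first kind and 7 of the second were called. The mhz4 roots were like mhz1 in 7 of the 9 and 5 of the 8, and in each of these the mhz4 shoots had the same state. In 1 of those 5, a probe set with no gene in the annotation, WT and mhz5 shoots were low as well. The mhz5 roots were like mhz1 in 1 of the 9, LOC4340325, and in 0 of the 8. In the probe set low in all shoots, mhz5 roots read 14.3 and 22.2, against 73.3 and 71.7 in WT roots, and so only just missed the limit. In 2 of the 9 and 3 of the 8, neither mhz4 nor mhz5 roots were like mhz1. Of all tested genes on chromosome 11, 18 of 653 were called (2.76%), against 0.513% to 1.55% on the other 11 chromosomes.

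**Figure D5:**
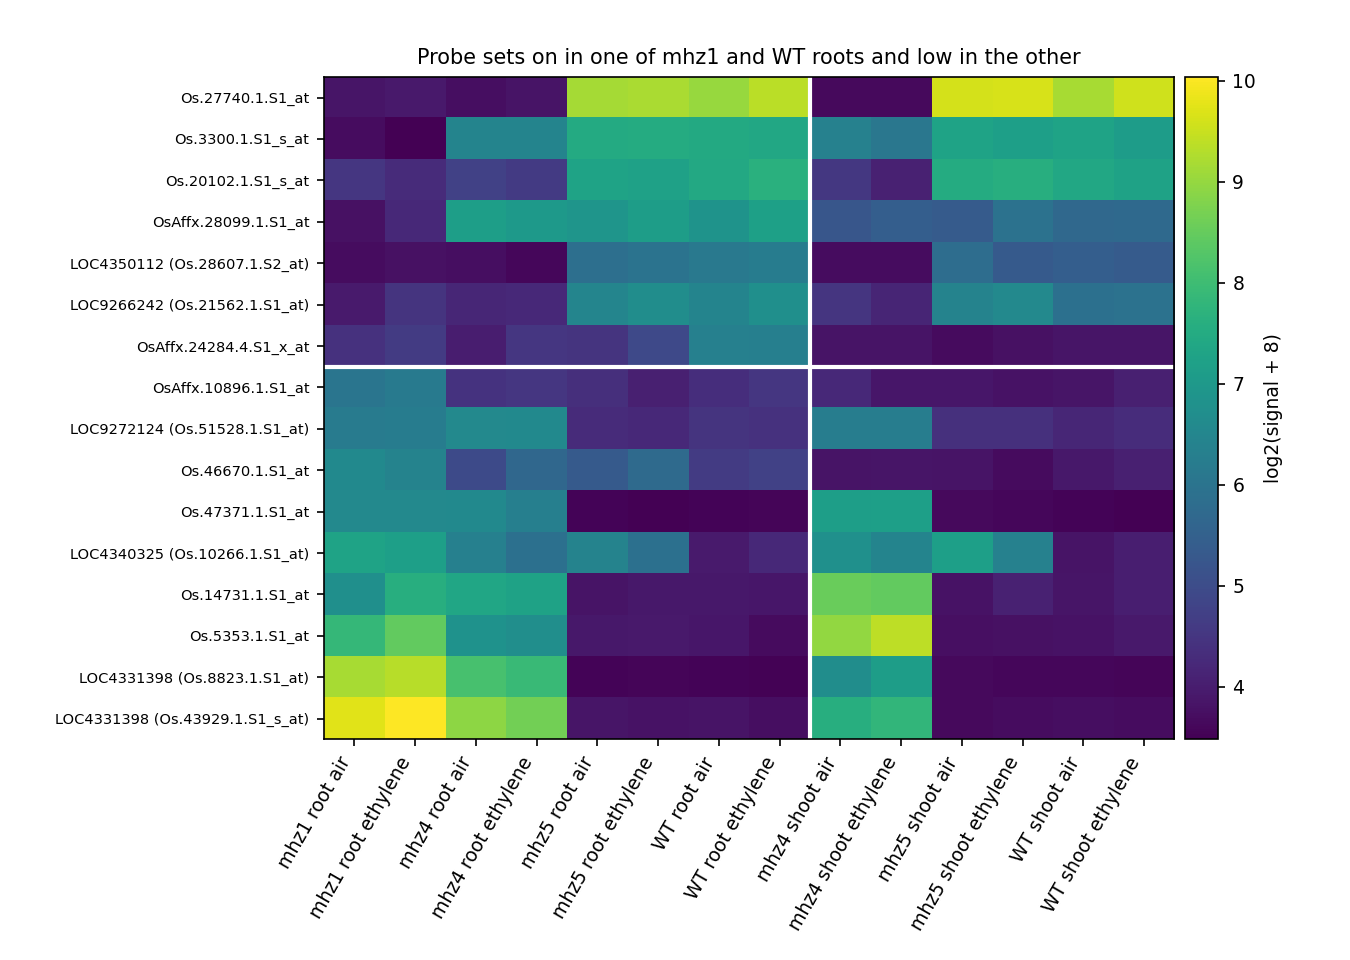
Signal in log2(signal + 8) (colour) on all 14 arrays (columns, roots left and shoots right of the white line) for the 16 called probe sets that read under 20 on both arrays of either mhz1 or WT roots and at least 50 on both arrays of the other; rows above the line are low in mhz1 and rows below it are low in WT. In 12 rows the mhz4 arrays have the state of mhz1 in roots and shoots, and in 1 row the mhz5 roots do. In 1 of the 12 rows all shoot arrays are low.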

How the data were processed

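RNA was measured on 14 Affymetrix rice arrays, of which 4 (mhz1 and WT roots, each in air and in ethylene) carry the comparison. The deposited intensity values, on a linear scale, came from MAS5 per the submitters' processing notes, whose version and scaling the labels leave unstated. The number of arrays limits the precision. Of 57381 probe sets, 187 controls were left out. Names came from the platform annotation (22436 probe sets with 1 gene, 95 with several) and the gene table of assembly ASM3414082v1, where all 17905 genes were found and 2441 had an informative name. limma 3.58.1 in R 4.3.3, checked on simulated data, was fitted to log2(signal + 8) of all 14 arrays with 7 genotype-by-tissue and 2 ethylene terms (5 residual degrees of freedom), with Benjamini-Hochberg adjustment over 23237 probe sets. The simulated data followed the same model, so they cannot check the use of both gases as repeats. The difference between gases was tested with separate ethylene terms for mhz1 and WT roots (3 residual degrees of freedom), which assumes that these arrays vary like mhz4, mhz5 and shoot arrays. Genes were named by size among called genes (12 each way), by size in air only (8 each way) and ethylene only (5 each way), and, from each list, as called members and the 3 largest. Other list members, such as the primary-wall cellulose synthases, were added after their values were seen. Members, lists and tests were chosen with earlier results of these data known. The alternatives changed the pseudocount, filter, normalization, arrays and variance trend.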

Additional observations from a re-analysis of the deposited data

How the results depend on the processing

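No paired analysis was possible because the labels number every sample replicate 1, so the numbers pair nothing. The arrays pair by gas, which the fit holds as a term. The count of 289 called probe sets was 121 on the 8 root arrays only, 944 on the 4 mhz1 and WT root arrays only, 66 without the mhz4 arrays and 184 without the mhz5 arrays. Leaving out 1 of the 4 arrays gave 27 (without mhz1 in ethylene) to 68 (without WT in air), with 44 without mhz1 in air and 51 without WT in ethylene. Of 31 named called genes, 6 kept their call in all 4 omissions and 20 in none, and none changed direction under any alternative run. With a pseudocount of 32, probe sets at least 2-fold apart numbered 206 in air, 165 in ethylene and 64 in both. At 3-fold they numbered 93, 72 and 32, and 33 in air only, and with at least 100 on the brighter array 70 in both. The median of the shoot marker list was -0.051 with a pseudocount of 32. With 1 gas left out, list medians that moved ranged over 0.13 to 0.29 for ERF and DREB genes, -0.29 to -0.28 for alpha-expansin genes, 0.10 to 0.12 for beta-expansin genes, -0.038 to 0.028 for defence genes, 0.14 to 0.31 for class III peroxidase genes, -0.040 to 0.055 for floral marker genes, 0.0052 to 0.14 for germin-like genes, -0.052 to 0.0087 for iron genes, -0.30 to 0.031 for low oxygen genes, -0.10 to -0.035 for shoot marker genes. Among the genes for which single-array omissions were run, which leave out RAB21, RAB16C, MFT1, PXG, PM19L1, ILI2, LAC24, CSFL8, ASMT3, ARGOS and AHP2, 15 uncalled genes reversed, whose mean difference ranged over -0.70 to 0.14 for AGPS2, -0.088 to 0.39 for ARD1, -0.029 to 1.66 for CM-LOX2, -1.48 to 0.091 for EXPA6, -0.012 to 0.32 for GLUA-2, -0.056 to 1.70 for JAZ13, -0.71 to 0.026 for NRAMP5, -0.995 to 0.28 for NSHB1, -1.28 to 0.75 for NSHB2, -1.29 to 0.39 for OrysaZ1, -0.000593 to 0.50 for PHT1-1, -1.58 to 0.33 for PP2C30, -0.32 to 0.049 for PPDK2, -3.49 to 0.48 for RAB16B, -3.23 to 1.01 for RAB16D. The causes of these shifts were not tested. The omissions also left fewer arrays and fewer residual degrees of freedom.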
